A study of Mus musculus with 24 samples.

Results

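The transcripts of 10 genes of the unfolded protein response and the integrated stress response were followed in mouse small intestinal organoids, which are epithelial cultures grown from intestinal crypts. The genes were chosen by name, with earlier results of these data known. They are Atf4, Ddit3, Trib3, Asns and Chac1, termed here the ATF4 arm, and Hspa5, Xbp1, Sdf2l1, Dnajb9 and Herpud1, termed the ER arm. Each symbol was matched to its Ensembl identifier, and 10 of the 54146 genes in the count tables were used. All 10 passed the filter on low counts in both experiments.

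Proteins that fold poorly in the endoplasmic reticulum (ER) are sensed by PERK, IRE1 and ATF6. IRE1 splices the Xbp1 mRNA and ATF6 is cut in the Golgi. The XBP1 protein made from the spliced mRNA and the cut ATF6 then act as transcription factors on genes for ER chaperones, protein export and ER-associated degradation. PERK belongs to a family of kinases, with GCN2, PKR and HRI, that phosphorylate the translation factor eIF2. This slows protein synthesis in general but allows the transcription factor ATF4 to be translated, and ATF4 in turn activates genes for amino acid uptake and synthesis, tRNA charging and cell death. ER stress responses are well known in Paneth and goblet cells of the intestine, which secrete large amounts of protein. CDK8 and CDK19 are the paralogous kinases of the Mediator complex, which links transcription factors to RNA polymerase II.

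There were 2 experiments, each with 4 groups of 3 libraries labelled as biological triplicates. The genotype experiment compared WT, CDK8-/-, CDK19-/- and CDK8-/- and CDK19-/- organoids (the last are titled Double-KO in the labels and are called double KO here), and RNA was taken after 7 days with 600 nM 4-hydroxytamoxifen in all 4 groups, WT included. By the study's methods, the drug activates a CreERT2 recombinase under the Villin promoter, so that exon 2 of the floxed Cdk8 gene is lost in epithelial cells, whereas Cdk19 was mutated with a lentiviral Cas9 and a guide to exon 1, followed by puromycin and clonal growth from single organoids. The inhibitor experiment compared WT organoids given Senexin B (SnxB), a small-molecule inhibitor of CDK8 and CDK19, or its vehicle DMSO, for 16 h or 24 h. The labels attach the same RNA protocol, 4-hydroxytamoxifen included, to these samples, and name no age or sex of the donor mice. Which libraries of a group share a mouse or a culture is not given, so p-values measure the spread between these libraries.

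In the strand-specific column used, the genotype libraries held 14636861 to 15473180 counts on genes and the inhibitor libraries 27075937 to 28405118. In the unstranded column these were 27761454 to 29299919 and 28264517 to 28826860, so the experiments were of similar depth and the column used holds fewer of the genotype reads. In the genotype libraries 49.6 to 49.7% of the strand-assigned counts lay in the column used, which means that these libraries carry no strand information, against 87.9 to 90.5% in the inhibitor libraries. Knockout status could not be read from Cdk8, whose counts over the whole gene were 35.8 to 43.2 counts per 1000000 counts of the library (CPM) in WT and 42.4 to 57.3 CPM in CDK8-/- libraries. Cdk19 was at 47.6 to 50.1 CPM in WT, at 28.1 and 28.3 CPM in replicates 2 and 3 labelled CDK19-/- and at 27.0 and 23.8 CPM in replicates 1 and 2 labelled double KO, but at 48.8 CPM in CDK19-/- replicate 1 and 51.7 CPM in double KO replicate 3. Those 2 libraries have the WT level of Cdk19 mRNA, so they are called by their labels, and calls of the members that change without them are given both ways. Counts over the whole gene do not settle whether Cdk19 is intact in them. The study reports a deletion at the guide site by sequencing, absence of CDK19 on blots and loss of Cdk19 mRNA by qPCR. For Cdk8 it reports genotyping and blots. It does not tie these checks to single sequenced libraries. The genotype samples carry the cell type label 4T1, a mammary carcinoma line. Their summed level of 6 intestinal epithelial markers was 3503 to 5088 CPM, whereas that of 5 mammary markers was 0 to 1.93 CPM, with Elf5, Wap and Krt5 at 0 in all 3 WT libraries. Of the mammary markers, WT libraries held at most 0.269 CPM in sum, and CDK8-/- and double KO libraries 0.341 to 1.93 CPM, where Csn3 alone passed the filter and was called higher in the double KO. Markers of other cells of the gut wall (8 genes of immune, stromal, muscle and endothelial cells) summed to 3.04 to 8.74 CPM in the genotype libraries and 3.81 to 5.76 CPM in the inhibitor libraries, with Col3a1 at 0 in 7 of the 8 groups. In each experiment 4 of them passed the filter. Their median log2 fold changes against WT were 1.42 in CDK8-/-, −0.175 in CDK19-/- and 1.68 in the double KO, with 0, 0 and 1 called higher. Between DMSO at 24 h and 16 h the median was 0.267, with 1 called higher.

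Short sequence elements near the gene starts are known for these pathways, and those found near the starts of 5 members are shown because ATF4 and the ER stress factors are known to act through elements of these kinds. All 10 genes had a RefSeq window of 300 bases (250 before to 50 after the start, GRCm38.p6). Both strands were searched for 4 motifs, and overlaps between motifs were allowed. The core of the CARE (C/EBP-ATF response element), TGATGNAA, was in 3.97% of 32851 windows. The ERSE (ER stress response element), CCAAT and CCACG with 9 free bases between them, was in 0.119%. The ERSE-II, ATTGG and CCACG with 1 free base between them, was in 0.0365%, and the UPRE (unfolded protein response element) core TGACGTG was in 2.01%. Each line gives 5′ to 3′ the gene's strand, with the motif in capitals.
Asns, CARE core, chr6:7693225-7693232, gene on the minus strand: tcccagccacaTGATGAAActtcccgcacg
Chac1, CARE core read on the opposite strand, chr2:119351049-119351056, gene on the plus strand: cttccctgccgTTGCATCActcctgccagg
Trib3, CARE core read on the opposite strand, chr2:152344039-152344046, gene on the minus strand: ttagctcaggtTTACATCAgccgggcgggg
Herpud1, CARE core read on the opposite strand, chr8:94386317-94386324, gene on the plus strand: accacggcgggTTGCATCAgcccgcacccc
Herpud1, ERSE-II, chr8:94386377-94386387, gene on the plus strand: cgggcgctgATTGGGCCACGttggacact
Hspa5, ERSE, chr2:34772025-34772043, gene on the plus strand: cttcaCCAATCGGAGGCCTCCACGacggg
Hspa5, UPRE core, chr2:34771933-34771939, gene on the plus strand: gggcgtagcaaTGACGTGagttgcggagg

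The CARE core thus occurred in 3 of the 5 genes of the ATF4 arm and in Herpud1, and the ERSE motifs only in Hspa5 and Herpud1 among the members. The Chac1 and Herpud1 matches and the UPRE core of Hspa5 lay upstream of every start annotated in GENCODE vM21, with the Herpud1 matches inside an intron of the antisense gene Gm15890. The Asns and Hspa5 matches lay 23 and 65 bases before the RefSeq start but in annotated first exons of transcripts that start further upstream, and the Trib3 match lay 14 bases after the RefSeq start in sequence that GENCODE leaves intergenic. None of the 4 motifs was in the windows of Atf4, Ddit3, Xbp1, Sdf2l1 and Dnajb9, which says nothing about other distances or other spellings.

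Per kb of exon, the ER chaperone Hspa5 and the transcription factor Atf4 were the most abundant members in WT organoids of the genotype experiment, at 111.2 ± 3.64 and 104.6 ± 6.77 CPM per kb (SD, n = 3). Xbp1 followed at 90.6 ± 6.23, Herpud1 at 62.2 ± 3.39 and Asns at 56.7 ± 4.82 CPM per kb. Dnajb9 (12.6 ± 1.04) and Sdf2l1 (11.6 ± 2.19) formed a lower pair, and Ddit3 (4.91 ± 0.621), Trib3 (4.89 ± 0.212) and Chac1 (4.48 ± 0.545) were lowest. The ranges of Hspa5 and Atf4 overlapped, as did those of Herpud1 and Asns, of Dnajb9 and Sdf2l1, and of Ddit3, Trib3 and Chac1, so that these neighbours were not ordered beyond their spread. The genes that mark acute stress were thus the least abundant, and they rest on few reads: Chac1 had 861 counts and Ddit3 1430 counts over all 12 genotype libraries, against 92668 for Hspa5. Under DMSO at 16 h, Asns (73.3 ± 18.6 CPM per kb) stood apart above Herpud1 (30.1 ± 3.17), and Sdf2l1 (25.9 ± 3.16) apart above Chac1 (7.64 ± 2.56), Trib3 (7.53 ± 2.20) and Dnajb9 (7.19 ± 0.654), of which each overlapped the next. Ddit3 was lowest there (3.74 ± 0.150). The 2 experiments were normalised separately and differ in strandedness, so that levels across them are only described.

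**Figure D1:**
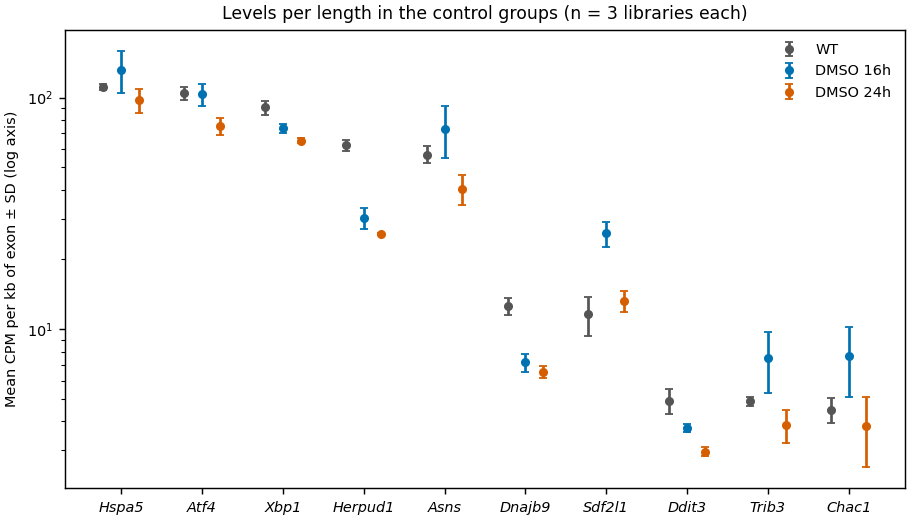
Mean level of the 10 genes in CPM per kb of exon (log axis) in WT organoids of the genotype experiment and in DMSO-treated organoids at 16 h and 24 h, with the SD over 3 libraries. Hspa5, Atf4 and Xbp1 are highest in each group, and Ddit3, Trib3 and Chac1 stand below 10 CPM per kb.

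With all libraries as labelled, edgeR called 0 of the 10 genes in CDK8-/- and in CDK19-/- (Chac1 in CDK19-/- without the library with WT-level Cdk19) and 3 in the double KO, and the most widespread change was between the vehicle groups, where every member was lower at 24 h than at 16 h and 6 fell. Genes were tested with edgeR's quasi-likelihood test over all genes of an experiment, and a gene was called when its Benjamini-Hochberg adjusted p was under 0.05. The share of all tested genes called in the same comparison is the background against which the members are to be read. It was 5.15% for CDK8-/- against WT, 0% for CDK19-/- against WT, 17.3% for double KO against WT, 0.0256% for double KO against CDK8-/-, 0.0256% for the departure from additivity of the 2 knockouts, 7.75% for SnxB against DMSO at 16 h, 27.5% at 24 h, 0% for the change of the SnxB effect between 16 h and 24 h, and 11.1% for DMSO at 24 h against 16 h. Groups whose libraries did not overlap were also common over all genes. Their share was 29.6% in CDK8-/-, 20% in CDK19-/- and 38.8% in double KO against WT, and 15.8% for double KO against CDK8-/-. With SnxB it was 24.8% at 16 h and 45.6% at 24 h, and over DMSO time 28.7%. Of the 10 members, 4, 4, 3 and 4 were so in these genotype comparisons, 2 and 4 with SnxB, and 7 over DMSO time.

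In CDK8-/- all 10 genes were uncalled in edgeR, with 2 at an unadjusted p under 0.05 (Hspa5 and Sdf2l1) and a single call, Sdf2l1, in DESeq2. The CDK19-/- libraries also gave 0 calls with edgeR, 1 gene (Chac1) at an unadjusted p under 0.05, and 1 call, Chac1, in DESeq2. The medians of the 10 log2 fold changes were −0.14 in both single knockouts, against 0.01 and −0.02 over all genes, and 9 of the 10 values were negative in CDK19-/-. In the double KO, Dnajb9 rose while Atf4 and Chac1 fell (3 of 10, 30%, against 17.3% of all genes), and only Dnajb9 stayed called when WT replicate 1, 2 or 3 was left out. Over all genes, 1348, 1454 and 1795 were then called, against 2700 with every library and 2452 without double KO replicate 3. Without double KO replicate 3, which has WT-level Cdk19, the 3 calls were Dnajb9, Hspa5 and Sdf2l1, and those of Atf4 (−0.25, adjusted p = 0.114) and Chac1 (−0.85, adjusted p = 0.111) were lost. Between double KO and CDK8-/-, and for the departure from additivity, edgeR and DESeq2 each called 0 members, with 2 and 1 at an unadjusted p under 0.05.

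**Figure D2:**
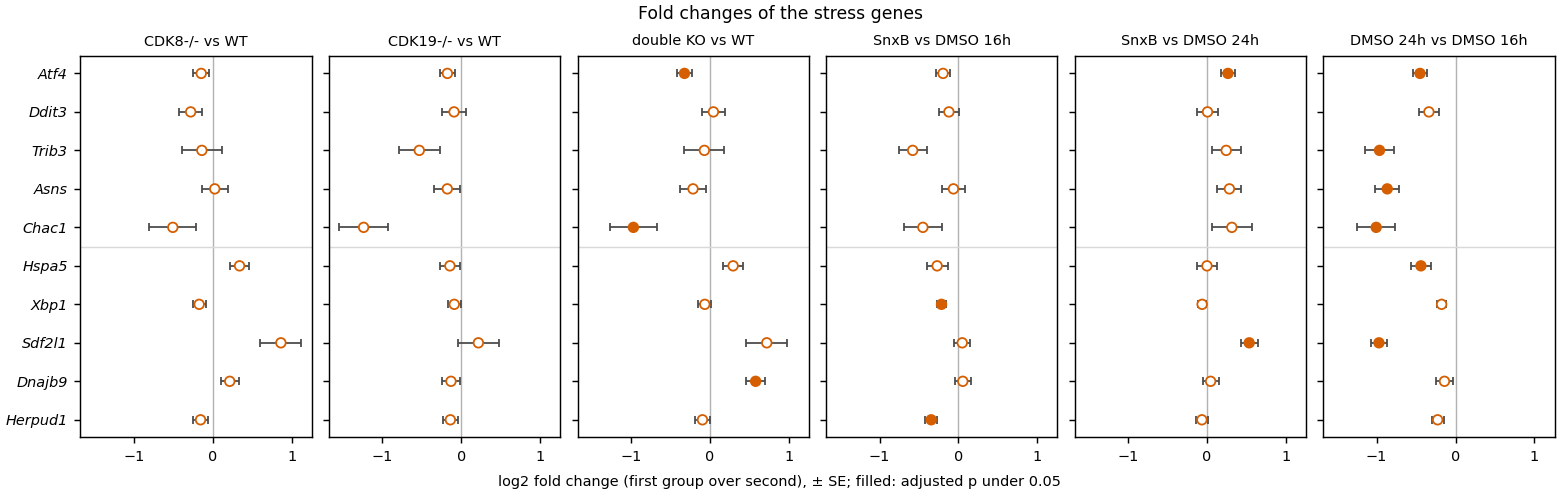
Log2 fold change and SE of each gene in 6 comparisons, first group over second, with filled points for an adjusted p under 0.05 and the ATF4 arm above the grey line. All 10 points lie left of 0 for DMSO at 24 h against 16 h, whereas Dnajb9 and Sdf2l1 lie right of 0 and Chac1 left of 0 in the double KO.

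With SnxB, Xbp1 and Herpud1 fell at 16 h (2 of 10, 20%, against 3.39% of all genes called lower), and Sdf2l1 and Atf4 rose at 24 h (2 of 10, 20%, against 14.8% called higher). The median log2 fold change of the 10 genes was −0.21 at 16 h and 0.14 at 24 h, against −0.01 and 0.00 over all genes. Testing the difference of these effects in edgeR called 0 members and 0 genes in all, with 5 members and 1995 genes at an unadjusted p under 0.05, and DESeq2 called 0 members. The 16 h call rests on few libraries: Xbp1 lost it without any of DMSO 16 h replicate 3 or SnxB 16 h replicates 1, 2 or 3 and Herpud1 without DMSO 16 h replicates 2 or 3 or SnxB 16 h replicate 1. Without DMSO 16 h replicate 1, by contrast, 6 members were called, among 1819 genes in all. Replicate numbers were taken to pair the SnxB and DMSO libraries, but the calls above come from the fit without this pairing. With the replicate as a block over all groups of the experiment, 4 members fell at 16 h, among 2293 genes called in place of 1198.

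Between the DMSO groups, which differ only in time by their labels, all 10 genes were lower at 24 h, 6 of them called (60%, against 6.59% of all genes called lower), and the median log2 fold change was −0.44 against 0.00 over all genes. The ATF4 arm had a median of −0.87 and the ER arm of −0.23. Because SnxB at 24 h is read against the same DMSO 24 h libraries, and SnxB at 16 h against the same DMSO 16 h libraries, these comparisons are not independent. The counts of calls were 4 without DMSO 16 h replicate 3, without DMSO 24 h replicate 1 or without DMSO 24 h replicate 3. Over all genes, 434, 522 and 946 were then called, against 1719 with every library. Without DMSO 16 h replicate 1, which was the lowest library of its group for 8 of the 10 genes, 7 members were called, among 2296 genes. In bulk RNA, fewer cells of a type and less RNA per cell cannot be told apart.

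Atf4 (ENSMUSG00000042406, chr15:80255184-80257541) encodes the transcription factor at the centre of the integrated stress response, whose activity is known to be set largely by translation, which mRNA counts do not show. Its level was 235.0, 240.2 and 264.9 CPM in WT, 217.4, 250.1 and 201.5 in CDK8-/-, 226.3, 209.5 and 219.2 in CDK19-/- and 210.9, 203.4 and 177.7 in double KO libraries. All double KO libraries were below all WT libraries, whereas CDK8-/- overlapped WT. Atf4 fell by 0.32 on the log2 scale in the double KO (SE 0.099, edgeR adjusted p = 0.0425), a call close to the threshold that was lost without 5 of the 6 libraries compared, all but double KO replicate 1 (adjusted p of 0.0766 to 0.138). It was also lost with no filter (0.0601), in the unstranded column (0.0864), with the replicate block (0.0543) and with only the 2 groups in the model (0.0509). In the inhibitor experiment it was at 212.2, 260.5 and 256.3 CPM under DMSO and 224.0, 203.4 and 209.5 CPM under SnxB at 16 h, and at 165.9, 194.1 and 173.6 CPM and 202.1, 229.8 and 209.8 CPM at 24 h. The SnxB libraries stood within the range of DMSO or below it at 16 h and all above DMSO at 24 h. The fall in DMSO from 16 h to 24 h was 0.45 on the log2 scale (SE 0.087, adjusted p = 0.00754), and the rise with SnxB at 24 h 0.27 (SE 0.087, adjusted p = 0.0357). The latter call was lost without DMSO 24 h replicates 1 or 3 or SnxB 24 h replicates 2 or 3.

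Asns (ENSMUSG00000029752, chr6:7675169-7693254), the asparagine synthetase and a classical target of ATF4, carries the CARE core on its own strand near the start. Its levels in the 4 genotypes overlapped, between 112.2 CPM in double KO replicate 3 and 189.1 CPM in CDK8-/- replicate 2, and no genotype comparison passed the test. The inhibitor libraries differed more. DMSO gave 141.7, 231.5 and 228.3 CPM at 16 h and 91.6, 120.4 and 118.1 CPM at 24 h, so that every 24 h library was below every 16 h library, although replicate 1 of 16 h was far below replicates 2 and 3. SnxB gave 178.2, 198.0 and 199.6 CPM at 16 h and 129.9, 143.5 and 128.6 CPM at 24 h. Asns fell 1.82-fold in DMSO over this time (log2 fold change −0.87, SE 0.152, adjusted p = 0.00488). Its log2 fold change with SnxB was −0.06 (SE 0.151) at 16 h and 0.28 (SE 0.152, adjusted p = 0.18) at 24 h. With the replicate block the latter passed the test (0.30, SE 0.099, adjusted p = 0.0274), as it did with no filter on low counts (0.0394). On leaving out a library in edgeR it was 0.168 to 0.353, with adjusted p of 0.164 to 0.489.

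Trib3 (ENSMUSG00000032715, chr2:152337422-152344032) encodes a pseudokinase induced through ATF4 and CHOP that restrains the pathway. WT libraries held 9.96, 10.9 and 10.3 CPM and CDK19-/- libraries 7.82, 6.38 and 7.33 CPM, which did not overlap, whereas CDK8-/- (7.28, 12.6 and 8.48 CPM) and double KO (14.3, 8.44 and 7.02 CPM) spread on both sides of WT. The log2 fold change in CDK19-/- was −0.53 (SE 0.258, adjusted p = 0.485). Over time the gene behaved like Asns. It was at 10.8, 17.5 and 19.7 CPM under DMSO at 16 h and at 7.40, 9.73 and 7.48 CPM at 24 h, a fall of 0.96 on the log2 scale (SE 0.182, adjusted p = 0.00668). SnxB libraries lay at 9.74, 10.5 and 11.9 CPM at 16 h and 9.09, 9.90 and 10.1 CPM at 24 h, all within 9.09 to 11.9 CPM. At 16 h the log2 fold change with SnxB was −0.58 (SE 0.179, adjusted p = 0.0629), and it passed the test in DESeq2 (0.0249), with no filter (0.00252), with the replicate block (−0.56, SE 0.132, adjusted p = 0.010) and without DMSO 16 h replicate 1 (−0.80, adjusted p = 0.0013). The difference of the SnxB effects, 24 h minus 16 h, was 0.82 (SE 0.258, adjusted p = 0.274).

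Chac1 (ENSMUSG00000027313, chr2:119351229-119354381) encodes an enzyme that degrades glutathione and is a sensitive marker of ATF4 activity. WT libraries held 6.46, 7.29 and 8.24 CPM and double KO libraries 3.41, 4.75 and 3.05 CPM, which did not overlap, and it fell 1.96-fold (log2 fold change −0.97, SE 0.302, adjusted p = 0.0446). This call was lost without 5 of the 6 libraries compared, all but double KO replicate 2 (adjusted p of 0.0839 to 0.119), and with the replicate block (0.0587). CDK19-/- libraries held 5.06, 2.15 and 2.11 CPM. The first of them is the library whose Cdk19 mRNA was at the WT level, and the group's log2 fold change of −1.24 (SE 0.306, adjusted p = 0.159) became −1.76 (SE 0.234, adjusted p = 0.00325) without it. With all 3 libraries it passed in DESeq2 (adjusted p = 0.014) and with no filter on low counts (0.0077). Over all genes, 521 were called in CDK19-/- without that library, against 0 with it. In double KO, by contrast, the library with WT-level Cdk19 was the lowest for Chac1. CDK8-/- libraries lay between, at 5.06, 5.60 and 4.82 CPM (log2 fold change −0.51, SE 0.296, adjusted p = 0.354), all below WT. Without CDK19-/- replicate 1 the departure from additivity of Chac1 was 1.31 (SE 0.302, adjusted p = 0.0425), against 0.78 (SE 0.431, adjusted p = 0.43) with it, and 467 genes in all were called in place of 4, the positive sign meaning that the double KO was higher than the sum of the single effects predicts.

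Chac1 followed Trib3 and Asns in the inhibitor experiment. DMSO libraries held 7.72, 14.3 and 15.5 CPM at 16 h and 4.56, 8.57 and 5.58 CPM at 24 h, with replicate 1 the lowest each time and the ranges overlapping. The fall was 2.01-fold (log2 fold change −1.01, SE 0.244, adjusted p = 0.0198), and it was lost without DMSO 16 h replicate 3, DMSO 24 h replicate 1 or DMSO 24 h replicate 3, and with only the 2 groups in the model (0.0812). SnxB libraries held 8.10, 9.73 and 9.65 CPM at 16 h and 7.05, 8.99 and 7.23 CPM at 24 h, and neither SnxB comparison passed the test.

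Ddit3 (ENSMUSG00000025408, chr10:127290774-127296288) encodes CHOP, the transcription factor tied to cell death under lasting ER stress. It was the only gene of its arm that was called in no comparison. Genotype libraries ranged from 6.34 CPM in CDK8-/- replicate 1 to 9.83 CPM in double KO replicate 1, and inhibitor libraries from 4.22 CPM in SnxB 24 h replicate 3 to 6.69 CPM in DMSO 16 h replicate 1. DMSO libraries were at 6.69, 6.18 and 6.38 CPM at 16 h and at 4.80, 5.22 and 5.20 CPM at 24 h, which did not overlap, yet the log2 fold change of −0.34 (SE 0.130, adjusted p = 0.107) did not pass the test. Ddit3 shares 68 bases of exon with Mars, a tRNA synthetase gene on the opposite strand, which the unstranded genotype libraries cannot separate. Another Ensembl entry of the same name, 105 bases long and inside the first, had 0 counts in all 24 libraries.

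**Figure D3:**
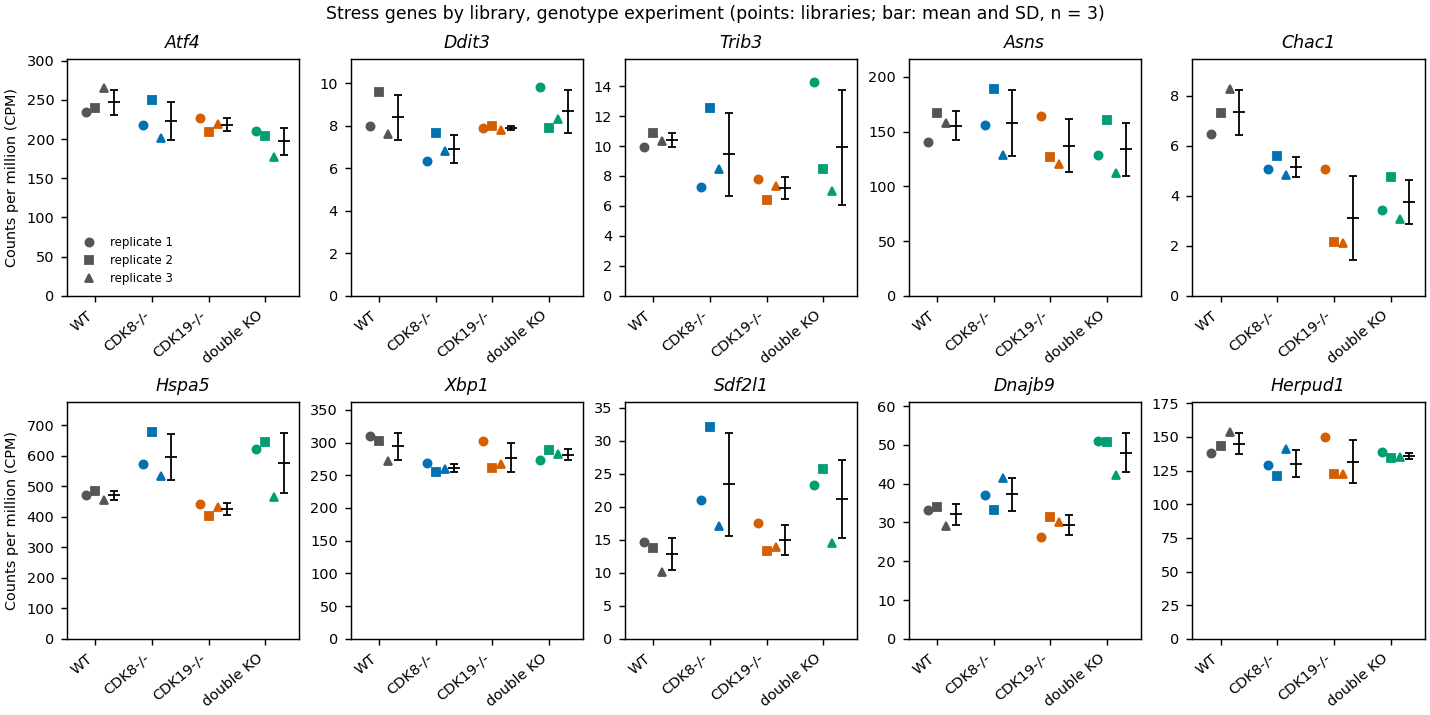
CPM of the 10 genes in the 12 genotype libraries, with replicates 1, 2 and 3 as circle, square and triangle and the mean and SD of each group at its right. Chac1 is below WT in all 9 libraries labelled as knockouts, of which CDK19-/- replicate 1 and double KO replicate 3 have WT-level Cdk19, and Dnajb9 is highest in the 3 double KO libraries.

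Hspa5 (ENSMUSG00000026864, chr2:34771970-34777547) encodes BiP, the main Hsp70 chaperone of the ER lumen and the sensor partner of PERK, IRE1 and ATF6. It was at 472.3, 484.8 and 454.2 CPM in WT and 441.8, 404.1 and 430.8 CPM in CDK19-/- libraries. CDK8-/- libraries held 572.4, 679.5 and 534.5 CPM, all above WT, and double KO libraries 622.5, 643.7 and 465.2 CPM, of which replicate 3 was within the WT range. The log2 fold changes of 0.34 in CDK8-/- (SE 0.126, adjusted p = 0.143) and 0.29 in the double KO (SE 0.126, adjusted p = 0.128) did not pass the test. Without double KO replicate 3, which has WT-level Cdk19 mRNA, the latter was 0.43 (SE 0.105) and passed (adjusted p = 0.0208). In DMSO, Hspa5 was at 434.3, 576.4 and 659.8 CPM at 16 h and at 358.7, 420.5 and 453.3 CPM at 24 h, so the groups overlapped. It fell by 0.44 on the log2 scale (SE 0.132, adjusted p = 0.0464), a call that was lost on leaving out any of the 6 libraries except DMSO 16 h replicate 1, and with only the 2 groups in the model (0.119). SnxB libraries at 24 h (372.7, 431.7 and 428.2 CPM) were close to DMSO, with a log2 fold change of 0.00 (SE 0.132). At 16 h they were at 410.4, 503.5 and 471.6 CPM (log2 fold change −0.27, SE 0.132, adjusted p = 0.245), and the difference passed the test with the replicate block (−0.26, SE 0.073, adjusted p = 0.0279). It also passed without DMSO 16 h replicate 1 (−0.421, adjusted p = 0.0226). On leaving out a library it ranged from −0.421 to −0.131, with adjusted p up to 0.624.

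Sdf2l1 (ENSMUSG00000022769, chr16:17130138-17132383), an ER lumen protein that works with BiP and its J-domain partners, moved most among the ER arm. DMSO libraries held 24.7, 30.04 and 31.3 CPM at 16 h and 13.1, 16.1 and 14.7 CPM at 24 h. SnxB libraries held 28.9, 31.3 and 28.8 CPM at 16 h and 21.4, 19.3 and 23.0 CPM at 24 h. At 16 h the treatments overlapped, whereas at 24 h every SnxB library stood above every DMSO library and below all of those at 16 h. The fall in DMSO was 1.96-fold (log2 fold change −0.97, SE 0.107, adjusted p = 0.000955), the clearest of the 10 genes, and the rise with SnxB at 24 h 1.45-fold (0.54, SE 0.107, adjusted p = 0.00256). Both calls held without any library in turn. The SnxB effects, 24 h minus 16 h, differed by 0.49 (SE 0.149, adjusted p = 0.269). In the genotype experiment it was at 14.6, 13.8 and 10.1 CPM in WT, 17.5, 13.3 and 13.9 CPM in CDK19-/-, 21.0, 32.1 and 17.1 CPM in CDK8-/- and 23.4, 25.7 and 14.5 CPM in double KO libraries. CDK8-/- lay wholly above WT and double KO overlapped it by replicate 3. The log2 fold changes were 0.86 (SE 0.259, adjusted p = 0.0783) and 0.72 (SE 0.259, adjusted p = 0.0746), just short of the test, and both passed it in DESeq2 (0.0212 and 0.0337) and without a filter on low counts (0.00527 and 0.0121). With the replicate block both also passed (0.0359 and 0.0315), although these libraries were not taken as paired. Without double KO replicate 3, the library with WT-level Cdk19, the double KO value was 0.93 (SE 0.243) and was called (adjusted p = 0.026). On leaving out a library the CDK8-/- value ranged from 0.568 to 1.03, with adjusted p of 0.0656 to 0.227. The double KO value then ranged from 0.559 to 0.932, with adjusted p of 0.026 to 0.221.

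Dnajb9 (ENSMUSG00000014905, chr12:44205559-44210326) encodes ERdj4, a J-domain co-chaperone of BiP that restrains IRE1. It was the member with the firmest genotype difference. WT libraries held 33.1, 34.0 and 29.1 CPM and double KO libraries 51.1, 50.7 and 42.1 CPM, and Dnajb9 rose 1.50-fold (log2 fold change 0.58, SE 0.116, adjusted p = 0.00621), a call that held on leaving out any library. CDK19-/- libraries (26.4, 31.4 and 30.1 CPM) were within or below the WT range and CDK8-/- libraries (37.1, 33.1 and 41.5 CPM) overlapped it. The departure from additivity was 0.50 (SE 0.165, adjusted p = 0.205). Inhibitor libraries hardly differed, from 15.6 CPM in DMSO 24 h replicate 1 to 20.5 CPM in SnxB 16 h replicate 3, and SnxB gave log2 fold changes of 0.06 and 0.05 (SE 0.102 each) at 16 h and 24 h.

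Herpud1 (ENSMUSG00000031770, chr8:94386438-94395377) encodes a membrane protein of the complex for ER-associated degradation, and its window held both the CARE core and the ERSE-II. The genotypes overlapped, from 120.7 CPM in CDK8-/- replicate 2 to 153.6 CPM in WT replicate 3. DMSO at 16 h gave 62.0, 72.8 and 76.1 CPM and SnxB at 16 h 52.2, 57.4 and 56.4 CPM, with no overlap, and Herpud1 fell by 0.35 on the log2 scale (SE 0.077, adjusted p = 0.0131), which did not pass with only the 2 groups in the model (0.0668). At 24 h DMSO (60.1, 60.8 and 59.4 CPM) and SnxB (54.9, 59.8 and 57.7 CPM) overlapped, with a log2 fold change of −0.06 (SE 0.077). The DMSO groups differed by −0.23 (SE 0.077, adjusted p = 0.0699), which passed in DESeq2 (0.0456) and with the replicate block (0.0209).

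Xbp1 (ENSMUSG00000020484, chr11:5520659-5525893) encodes the transcription factor made from the mRNA that IRE1 splices. Counts over the gene do not tell the spliced from the unspliced form. By the ratio of the highest to the lowest library it varied least of the members in each experiment (1.21 and 1.24), from 255.3 to 309.5 CPM over the 12 genotype libraries and from 200.5 to 249.4 CPM over the 12 inhibitor libraries. Under DMSO at 16 h it was at 238.3, 229.7 and 249.4 CPM and under SnxB at 208.1, 206.2 and 203.9 CPM, and this small, even difference was a fall of 0.21 on the log2 scale (SE 0.055, adjusted p = 0.028), which did not pass with no filter (0.102) or with only the 2 groups in the model (0.127). At 24 h, DMSO (217.7, 210.2 and 207.0 CPM) and SnxB (200.5, 201.6 and 206.4 CPM) were close, with a log2 fold change of −0.06 (SE 0.055). The DMSO groups differed by −0.18 (SE 0.055, adjusted p = 0.0524), which passed in DESeq2 (0.00884), in the unstranded column (0.0428) and with the replicate block (0.0344).

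**Figure D4:**
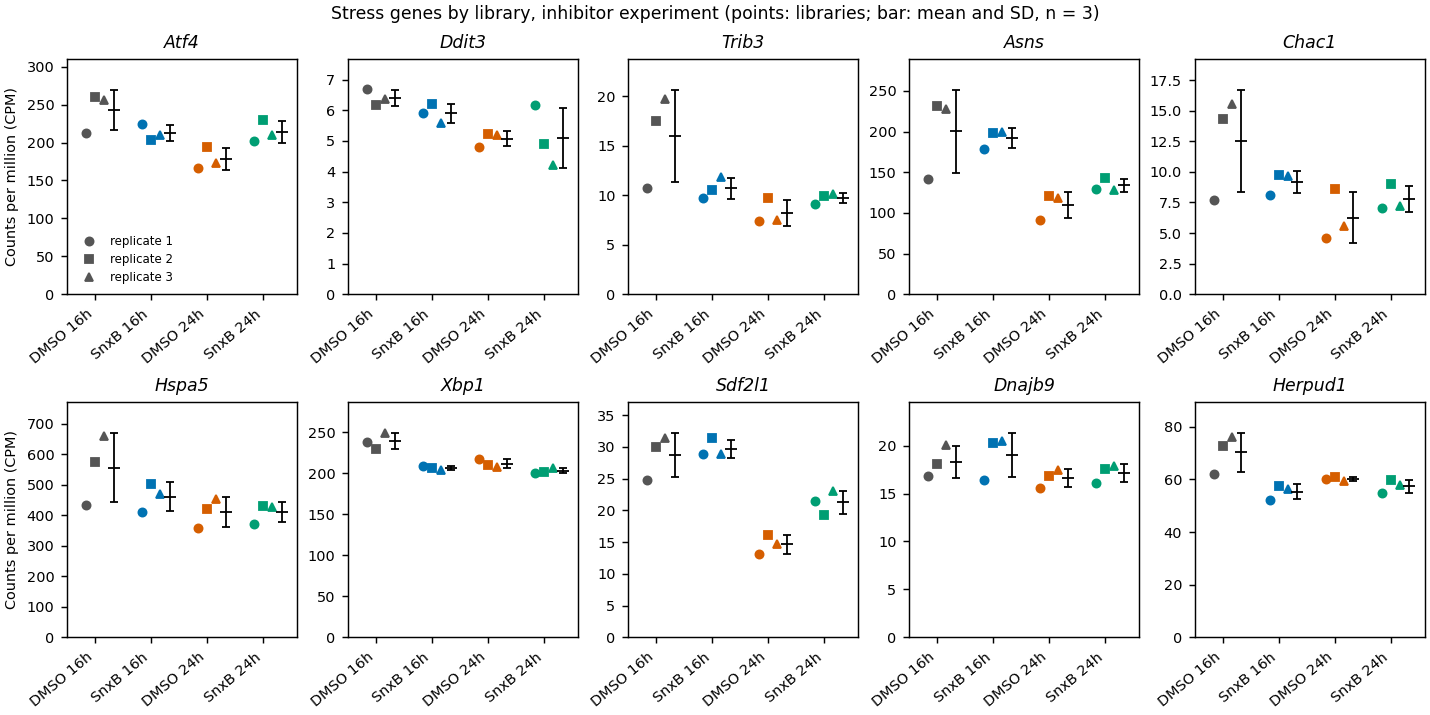
CPM of the 10 genes in the 12 inhibitor libraries, drawn as for the genotypes. Sdf2l1 is lowest under DMSO at 24 h and intermediate under SnxB at 24 h, and replicate 1 (circle) is the lowest library of DMSO 16 h for 8 genes.

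The rest of the pathway was read from 8 lists of 110 genes that do not include the members, of which 107 were tested in the genotype and 108 in the inhibitor experiment. Over DMSO time, 45 of the 108 fell (41.7%, against 6.59% of all genes) and 0 rose in edgeR (against 4.52%), with 70 at an unadjusted p under 0.05 and 54 called in DESeq2 in either direction. The median log2 fold change was −0.24. Of 43 tested ATF4 targets, 24 fell (55.8%), with a median of −0.51. In the amino acid supply list 13 of 17 fell, among them Mthfd2 of mitochondrial one-carbon metabolism, from 67.6 ± 22.3 to 28.8 ± 4.16 CPM (log2 fold change −1.23, adjusted p = 0.00307), and the serine synthesis enzyme Psat1, from 189.9 ± 50.8 to 97.8 ± 19.4 CPM (−0.96, adjusted p = 0.00509). The tRNA charging list, which holds tRNA synthetases and the tRNA export receptor Xpot, followed with 6 of 13, including the synthetases Cars (−0.78, adjusted p = 0.00488), Aars (−0.75, adjusted p = 0.0103) and Yars (−0.74, adjusted p = 0.0025). Among regulators and signals 5 of 13 fell, such as the secreted factors Gdf15 (−0.91, adjusted p = 0.0162) and Stc2 (−0.85, adjusted p = 0.00145).

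Of 45 effectors in the ER, 19 fell (42.2%, against 6.59% of all genes). Of 20 ER chaperones and folding enzymes, 10 fell, including Manf (−0.70, adjusted p = 0.00145), Hyou1 (−0.52, adjusted p = 0.00145) and the oxidase Ero1l (−1.13, adjusted p = 0.00414), which is also known as a hypoxia-induced gene, and of 12 genes for translocation and export 8 fell, including Sec61b (−0.40, adjusted p = 0.00799). ER-associated degradation gave 1 of 13 (Selenos, −0.32, adjusted p = 0.0211), with 5 values above 0 and a median of −0.04. The sensors gave 1 of 11 eIF2 kinases, phosphatases and exchange factor genes (Eif2b5, −0.32, adjusted p = 0.0187) and 1 of 9 UPR sensors and processing genes (Atf6b, −0.21, adjusted p = 0.0419). Leaving out any library gave 0 targets and 0 effectors that rose, but changed how many fell. The targets that fell numbered 16 without DMSO 16 h replicate 3 and 33 without DMSO 16 h replicate 1, and the 19 effectors that fell became 6 without DMSO 16 h replicate 3 or DMSO 24 h replicate 1 and 12 without DMSO 24 h replicate 3. With only the DMSO libraries in the model, 13 targets and 5 effectors were called, among 385 genes in place of 1719.

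**Figure D5:**
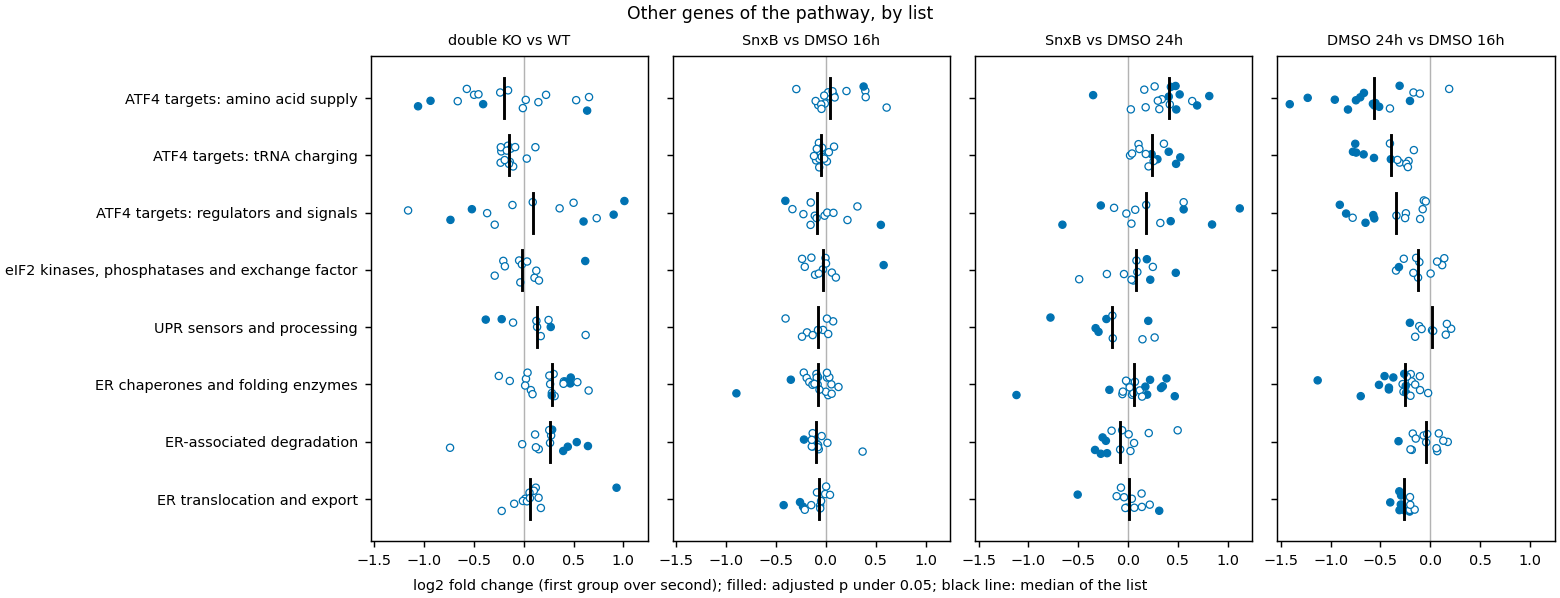
Log2 fold change of every tested gene of the 8 pathway lists in 4 comparisons, with filled points for an adjusted p under 0.05 and a black line at each list's median. Of 17 amino acid genes 16, and all 13 tRNA charging genes, lie left of 0 for DMSO at 24 h against 16 h (the exception is Slc7a3) and right of 0 for SnxB against DMSO at 24 h (the exception is Slc38a2), while ER chaperone and degradation genes lie mostly right of 0 in the double KO.

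SnxB at 24 h gave 16 rises and 3 falls among the 43 tested ATF4 targets (37.2% and 6.98%, against 14.8% of all genes called higher and 12.7% lower), with a median log2 fold change of 0.30. Of the 17 amino acid genes 7 rose and 1 fell, with Mthfd2 at 50.6 ± 5.65 against 28.8 ± 4.16 CPM (0.81, adjusted p = 0.00746) and the proline enzyme Pycr1 at 20.9 ± 0.523 against 12.9 ± 0.917 CPM (0.69, adjusted p = 0.00206), and the transporter Slc38a2 falling (−0.35, adjusted p = 0.0381). Of the 13 tRNA charging genes 5 rose, including the synthetase Yars (0.52, adjusted p = 0.00373). Among regulators, 4 of 13 rose, such as Gdf15 (1.12, adjusted p = 0.00162) and Nupr1 (0.84, adjusted p = 0.000124), and 2 fell, including Vldlr (−0.66, adjusted p = 0.00736). With the replicate block 27 targets rose, and without DMSO 24 h replicate 1 or SnxB 24 h replicate 2 the number was 11. The 3 falls became 1 or 2 on leaving out any library, with 1 without DMSO 24 h replicate 3 or SnxB 24 h replicates 2 or 3. All of these are read against the DMSO 24 h libraries, which serve in both comparisons.

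At 24 h, 8 of 45 effectors rose and 8 fell (17.8% each), near the 14.8% and 12.7% of all genes called higher and lower. Chaperones and folding enzymes gave 7 rises and 2 falls of 20, with Manf up (0.47, adjusted p = 0.00213) and Ero1l down (−1.12, adjusted p = 0.000895), ER-associated degradation gave 0 rises and 5 falls of 13, including Edem3 (−0.33, adjusted p = 0.0433), and UPR sensors 1 rise and 4 falls of 9. Among the latter, Ern2, the IRE1 paralogue of secretory epithelia, fell from 40.2 ± 4.11 to 23.4 ± 8.77 CPM (−0.78, adjusted p = 0.014), and Ern1 (−0.33, adjusted p = 0.00833) and Atf6 (−0.30, adjusted p = 0.0309) also fell. Eif2ak3, which encodes PERK, rose both at 24 h (0.48, adjusted p = 0.00198) and at 16 h, where it was at 39.5 ± 1.99 against 26.4 ± 2.08 CPM (0.58, adjusted p = 0.00153). The 8 effector rises numbered 3 without DMSO 24 h replicate 1 or SnxB 24 h replicate 2 and 4 without DMSO 24 h replicate 3 or SnxB 24 h replicate 3, and the 8 falls 3 to 5 without any library. At 16 h itself, 2 of 43 targets rose and 1 fell (4.65% and 2.33%, against 4.36% and 3.39% of all genes; 5 rose with the replicate block, among 2293 genes called). The falling targets numbered 0 without SnxB 16 h replicate 2 and 4 without DMSO 16 h replicate 1. At the same time 0 effectors rose and 6 fell (13.3%, against 3.39% of all genes), among them Ero1l (−0.90, adjusted p = 0.00923), P4hb (−0.35, adjusted p = 0.00456) and Sec24d (−0.42, adjusted p = 0.00247). These 6 became 3 with only the 2 groups in the model and 4 to 7 on leaving out a library. The change of the SnxB effect between times called 0 of the 108 genes in edgeR and in DESeq2, with 24 at an unadjusted p under 0.05. With no filter on low counts 4 targets rose, among 121 genes called, and without DMSO 16 h replicate 1 there was 1 target, among 7 genes.

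In the double KO, 10 of 45 effectors rose (22.2%, against 9.41% of all genes called higher) and 0 fell (against 7.9% called lower). These were 4 of 20 chaperones and folding enzymes, including Calr, at 918.9 ± 126 against 664.9 ± 20.6 CPM (0.47, adjusted p = 0.0194), and Dnajc3 (0.42, adjusted p = 0.0142), 5 of 13 degradation genes, including Edem1 (0.64, adjusted p = 0.00279) and Selenos (0.53, adjusted p = 0.00692), and Sec24d of the export coat (0.93, adjusted p = 0.00469). Without WT replicate 1 the number was 5, and without double KO replicate 3, the library with WT-level Cdk19, it was 15. Of 42 ATF4 targets, 4 rose and 5 fell (9.52% and 11.9%), near the same 9.41% and 7.9% of all genes. Slc3a2 (0.64, adjusted p = 0.00144) and Sesn2 (0.60, adjusted p = 0.00201) rose, while Slc7a5, which forms an amino acid transporter with Slc3a2, fell from 88.4 ± 2.24 to 46.2 ± 7.39 CPM (−0.94, adjusted p = 0.00113) and Atf5 fell (−0.73, adjusted p = 0.0162). The falls numbered 1 without WT replicate 3 and 2 without WT replicate 2 or double KO replicate 3, but 9 with no filter on low counts, among 2894 genes called. The rises numbered 7 with DESeq2, among 3186 genes called, and 3 to 6 on leaving out a library. Eif2ak3 rose in the double KO (0.62, adjusted p = 0.000703) and in CDK8-/- (0.45, adjusted p = 0.00851), as it did with SnxB.

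CDK8-/- alone gave 8 rises and 1 fall among the 107 genes (7.48% and 0.935%, against 2.79% and 2.36% of all genes), with 4 effectors up (Dnajc10, Dnajb11, Edem1 and Ube2j1, log2 fold changes of 0.28 to 0.51), of which 0 or 1 was called on leaving out any library of the 2 groups, whereas DESeq2 called 12 effectors higher and 20 of all the genes in either direction, among 1294 genes. The targets Gdf15 (1.11, adjusted p = 0.00362) and Sesn2 (0.54, adjusted p = 0.00933) rose and Atf5 fell (−0.74, adjusted p = 0.0375), a call that was lost on leaving out any library of the 2 groups and in the unstranded column. The targets that rose numbered 5 with no filter on low counts, among 1269 genes called, and 4 without CDK8-/- replicate 2, among 699. CDK19-/- and the comparison of double KO with CDK8-/- called 0 of the 107 genes in edgeR, with 13 and 20 at an unadjusted p under 0.05 and 1 and 2 called in DESeq2. The departure from additivity called 0, with 6 at an unadjusted p under 0.05 and 4 called in DESeq2. Without CDK19-/- replicate 1, which has WT-level Cdk19, 2 targets fell and 1 effector rose in CDK19-/-, among 521 genes called, and 1 target and 1 effector were called above additivity and 1 target below it, among 467. Without CDK8-/- replicate 3, double KO against CDK8-/- gave 1 target and 1 effector that rose and 4 targets that fell, among 839 genes called in place of 4.

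Markers of secretory cells differed in the same groups. The 6 Paneth cell markers summed to 1288 to 1706 CPM in WT, 1385 to 1673 CPM in CDK19-/-, 3956 to 5260 CPM in CDK8-/- and 2544 to 5200 CPM in double KO libraries, and all 6 rose in both CDK8-/- and double KO (Lyz1 by 2.01 and 2.13 on the log2 scale, adjusted p = 0.000481 and 0.000235). The 9 goblet cell markers summed to 2369 to 3304 CPM in WT, 3658 to 4202 CPM in CDK8-/- and 2923 to 4753 CPM in double KO libraries, and 3 and 2 of them rose. CDK19-/- libraries held 1440 to 2842 CPM, with all 9 fold changes below 0 and 0 called in edgeR (3 at an unadjusted p under 0.05, 2 in DESeq2). Their part in the ER values was not tested. Under SnxB at 24 h the Paneth markers summed to 1304 to 1774 CPM, against 2866 to 3069 CPM under DMSO, with 5 of 6 called lower, and at 16 h to 1542 to 2003 CPM against 2024 to 2909 CPM, with 2 called lower. Of the 9 goblet markers, 4 rose with SnxB at 16 h, and at 24 h 5 rose, including Zg16 (1.08, adjusted p = 3.62e-06), Clca1 (0.96, adjusted p = 0.000199) and Agr2 (0.80, adjusted p = 0.000388), while the abundant Fcgbp fell (−0.51, adjusted p = 0.00746). Their sums were 2900 to 3272 CPM with SnxB against 2899 to 3699 CPM with DMSO at 16 h, and 3023 to 3401 against 3500 to 3982 CPM at 24 h. The enterocyte enzyme gene Sis (−0.73 and −0.93, adjusted p = 0.0138 and 0.00124) and the stem cell marker Lgr5 (−0.47 and −0.97, adjusted p = 0.0285 and 0.000112) fell with SnxB at 16 h and 24 h, whereas Apoa1 rose at 24 h (0.51, adjusted p = 0.0418). Enterocyte sums were 2399 to 2617 CPM with SnxB against 2689 to 3149 CPM with DMSO at 24 h, and overlapped at 16 h (2555 to 2744 and 2671 to 3360 CPM), and stem cell sums overlapped at both times. Of 6 general epithelial markers, Krt20 (1.88, adjusted p = 0.0026), Cdh17 and Vil1 rose and Cdx2 fell in the double KO, while at 24 h with SnxB Krt20 (−0.82, adjusted p = 0.0152) and Cdh17 fell and Cdx1 rose. Enterocyte markers summed to 6247 to 6659 CPM in WT, 4216 to 5418 CPM in CDK19-/-, 7755 to 8538 CPM in CDK8-/- (1 of 6 called higher) and 10070 to 13990 CPM in double KO libraries (3 called higher). The 4 stem cell markers summed to 2243 to 2579 CPM in WT, 3012 to 4878 CPM in CDK19-/-, 1997 to 3280 CPM in CDK8-/- (1 called lower) and 1588 to 1813 CPM in double KO libraries (3 called lower). In CDK19-/- edgeR called 0 enterocyte and 0 stem cell markers, with 2 and 3 at an unadjusted p under 0.05 and 2 of each in DESeq2. Between the DMSO groups 0 of 6 Paneth markers (2 at an unadjusted p under 0.05, 1 called in DESeq2), 1 of 9 goblet markers, 0 of 6 enterocyte markers and 1 of 4 stem cell markers were called. The median log2 fold changes of these lists were 0.22, 0.0552, −0.0885 and −0.125. Whether cell types play a part in the falls of the stress genes over this time was not tested.

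Members were also compared across libraries by correlation. Each member was set against the mean of the other genes of its arm over 12 libraries, which share groups and treatments. In the inhibitor experiment Atf4, Trib3, Asns and Chac1 had Pearson r of 0.889, 0.920, 0.907 and 0.954, whereas Ddit3 had 0.544. In the genotype experiment these were 0.698, 0.626, 0.690 and 0.634, and 0.0946 for Ddit3. Genes that are no members were set against the mean of the whole arm, so their r has another target. Of 11996 such genes in the inhibitor experiment, Metap1 (0.949), the tRNA synthetase Cars (0.946), Slc35b1 (0.945), Galnt12 (0.942) and the tRNA synthetase Aars (0.938) were most like the mean of the ATF4 arm. In the genotype experiment these were Bdh1 (0.943), Chd1l (0.929), Adss (0.913), Arg2 (0.909) and Cars (0.903). In the ER arm, Hspa5 had r of 0.887 and 0.877 with the mean of the other genes of the arm. Xbp1 and Herpud1 had −0.139 and −0.233 in the genotype and 0.529 and 0.523 in the inhibitor experiment, so that the ER arm did not vary as 1 unit. The genes most like the mean of the whole ER arm were Casp6 (0.970), the ER chaperone Calr (0.959), Lamtor1 (0.958), Mdh1 (0.958) and Tgfbrap1 (0.956) among the genotypes, and Coq5 (0.973), Mark3 (0.964), Akirin1 (0.960), Idh3a (0.948) and Slc35b1 (0.944) with the inhibitor.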

How the data were processed

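The authors aligned single-end reads to GRCm38.p6 with STAR (2.6.0c in the submitters' notes) and deposited raw counts per gene of Ensembl release 93. Column 4, the second of the strand-specific columns, was used throughout. The labels describe the inhibitor libraries as rRNA-depleted but their protocol as oligo(dT) selection.

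Members and lists were chosen with earlier results of these data known. Counts were filtered (filterByExpr), scaled by TMM within each experiment and tested with edgeR 4.0.16 in R 4.3.3 with all 12 libraries of that experiment in the model, over 15602 and 15467 genes, after a check on simulated data. SE is the fitted log2 fold change over the root of its F statistic, and CPM use the scaled library size. Exon lengths came from GENCODE vM21. Named list genes were the 3 largest called rises and falls per list that averaged 50 or more normalised counts. Likeness was Pearson's r of log2 CPM (prior count 2). Figures were drawn with matplotlib 3.10.9.

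Replicate numbers were checked for pairing by the correlation of deviations from group means. Same-numbered SnxB and DMSO libraries had r of 0.303, 0.101 and 0.110 at 16 h and 0.377, 0.137 and 0.187 at 24 h, each above 0.1, so they were taken as paired. The main fit holds the groups alone, so its SnxB calls do not use this pairing, which enters only with the replicate block. That block spans all groups of an experiment, so it also ties 16 h libraries to 24 h libraries of the same number. The evidence is weak, since pairs of different number reached 0.154 and 0.147, above 2 of the 3 values at 16 h and 1 at 24 h. The other comparisons were not paired. No 2 replicates were duplicates, judged by the chi-square of their counts per degree of freedom. WT replicates 1 and 2 were by far the closest pair of WT libraries (2.32, against 9.57 and 9.04 for the other WT pairs). Replicates 2 and 3 were also close in CDK19-/- (4.03), DMSO 24 h (4.88), SnxB 16 h (4.33) and SnxB 24 h (4.53). If such pairs share a culture, the spread within these groups is understated. Multimapping reads, 19.5 to 22.9% of genotype and 7.25 to 8.17% of inhibitor reads, were not counted, so values of genes with close copies are uncertain. Alternatives were DESeq2 1.42.0, its size factors in edgeR, other filters, the unstranded column, smaller models, the replicate block and leaving out each library.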

Additional observations from a re-analysis of the deposited data

How the results depend on the processing

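Of the single-gene results over the 10 genes and 9 comparisons, 572 of 610 values kept direction and side of the threshold when a tool, filter, column or model was changed, and 579 of 660 when a library was left out. The cause of the others was not tested. The number of members called in CDK8-/- was 1 with DESeq2, without a filter and with the replicate block, against 0. In CDK19-/- it was 1 with DESeq2 and without a filter, against 0, for SnxB at 16 h 4 with the replicate block and 0 with only the groups compared, against 2, and for the change of the SnxB effect 2 without a filter, against 0. Leaving out a library gave 0 to 1 in CDK19-/-, 1 to 3 in double KO, 0 to 1 for non-additivity, 0 to 6 for SnxB at 16 h and 1 to 2 at 24 h.

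Signs turned for Ddit3 in CDK19-/- (0.0114, unstranded column), Atf4 for non-additivity (−0.000442, no filter), Ddit3 for SnxB at 24 h (−0.00171, at least 10 counts) and Hspa5 for SnxB at 24 h (−0.00075 with DESeq2, −0.003 with its size factors, −0.00894 with at least 10 counts, −0.00684 with only the groups compared), all near 0. On leaving out a library, log2 fold changes that turned ranged as follows. In CDK8-/- Trib3 ranged from −0.397 to 0.0173 and Asns from −0.124 to 0.135. In CDK19-/- Ddit3 ranged from −0.141 to 0.0326, and in double KO Ddit3 from −0.0406 to 0.163 and Trib3 from −0.414 to 0.128. Against CDK8-/-, double KO gave −0.27 to 0.328 for Trib3, −0.131 to 0.103 for Hspa5 and −0.312 to 0.154 for Sdf2l1. Non-additivity gave −0.0642 to 0.0898 for Atf4 and −0.213 to 0.0872 for Asns. SnxB at 16 h gave −0.261 to 0.0527 for Asns, −0.0483 to 0.115 for Sdf2l1 and −0.00346 to 0.153 for Dnajb9, and at 24 h −0.151 to 0.126 for Ddit3 and −0.0897 to 0.0766 for Hspa5. The change of the SnxB effect gave −0.0303 to 0.247 for Ddit3 and −0.106 to 0.0496 for Dnajb9.

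Counts over all genes differed by more than 1.5 times from edgeR's in 22 of 61 settings. They were 1294 with DESeq2 and 1269 without a filter in CDK8-/- (804), 309, 479 and, with only the groups compared, 15 in CDK19-/- (0), 0 to 407 for double KO against CDK8-/- (4), 0 to 566 for non-additivity (4), 725 and, blocked, 2293 for SnxB at 16 h (1198), 60 to 121 for the change of the SnxB effect (0) and 385 and, blocked, 3281 for DMSO over time (1719). Leaving out a library moved 35 of 66 such counts by more than 1.5 times, and with them the background shares. They were 196 (without WT replicate 1) to 699 in CDK8-/-, 0 to 521 in CDK19-/-, 1348 (without WT replicate 1) to 2452 in double KO, 3 to 839 (without CDK8-/- replicate 3) for double KO against CDK8-/-, 0 to 467 for non-additivity, 657 to 1819 and 2656 to 3805 for SnxB at 16 h and 24 h, 0 to 26 for the change of its effect, and 434 (without DMSO 16 h replicate 3) to 2296 for DMSO over time. The replicate block added Asns at 24 h, and Trib3 and Hspa5 at 16 h, to the SnxB calls, and in comparisons not taken as paired it gave 2 member calls for double KO (3) and 8 for DMSO over time (6). Same-numbered DMSO libraries of the 2 times had r of 0.366, −0.0503 and 0.284, so replicates 1 and 3 but not 2 were above the highest r of other pairs, 0.12. Counts over the lists were put through these settings after seeing the data. Counts were fewest for Chac1, Ddit3 and Trib3, which had 861 to 1648 counts over the 12 genotype libraries in the column used.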

Other observations

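Cytosolic heat shock genes, which belong to the HSF1 response and not to ER stress, were read from a list of 8 genes. Of the 7 tested in the genotype experiment 0 were called in CDK8-/-, CDK19-/- or double KO organoids by edgeR, with median log2 fold changes of 0.32, 0.08 and 0.43, with 2, 0 and 4 at an unadjusted p under 0.05 and 0, 0 and 1 called in DESeq2. In the inhibitor experiment 6 were tested. Hsph1, an Hsp110 chaperone, fell from 63.8 ± 4.61 CPM under DMSO at 16 h to 49.9 ± 2.61 CPM at 24 h (log2 fold change −0.35, SE 0.069, adjusted p = 0.0075) and was at 60.3 ± 1.02 CPM with SnxB at 24 h, a rise over DMSO (0.27, SE 0.069, adjusted p = 0.00988). Hspa1b, an inducible cytosolic Hsp70, rose with SnxB at 24 h from 1.82 ± 0.107 to 3.12 ± 0.097 CPM (0.78, SE 0.138, adjusted p = 0.00112). The DMSO 24 h libraries serve in both comparisons.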
